A study of Homo sapiens with 6 samples.

Results

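The HOXB cluster genes were followed in cells of the established pancreatic carcinoma line MIA PaCa-2, which the labels call epithelial, with and without knockout of LINC00901, a gene for a long non-coding RNA. The family has 10 members (HOXB1 to HOXB9 and HOXB13), and they filled 8 of the 18268 rows of the deposited expression table, because HOXB6, HOXB3 and HOXB4 shared a joined row. The family was chosen by gene name, with the fall of HOXB9 between the same 2 groups already known. Differences between the groups are therefore given below as a description of the members. The limma call of HOXB9 is among the values that led to the choice, so it is no test of the family. Total RNA was sequenced from 3 libraries of vector control cells (labelled LCV2) and 3 libraries of LINC00901 KO cells, all grown in the same serum-supplemented medium. The labels give no age of the cultures and do not say whether the knockout cells were 1 clone or a pool, or whether libraries came from separate cultures. P-values for other genes therefore measure the spread between these libraries, which may be technical. LINC00901 itself was named by 0 of the 18268 rows, so the knockout was not checked in these values and each direction rests on the labels.

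HOX genes encode transcription factors that carry a homeodomain, a DNA-binding fold, and assign positional identity along the body axis. In each cluster the genes stand in a row on the chromosome, and the order follows where along the axis they are active, with the low-numbered genes anterior and the high-numbered genes posterior. Their proteins bind DNA together with TALE homeodomain partners of the PBX, MEIS and PKNOX families. Retinoic acid, Polycomb repressors and Trithorax activators are textbook regulators of the clusters, and HOX genes are often expressed out of place in carcinomas.

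The members on which the results turn differ in the homeobox, the stretch that encodes the homeodomain. It is shown here for HOXB7, HOXB9 and HOXB13, the members that passed the level filter described below, to let their likeness be judged. Each runs 5′ to 3′ along the coding strand over 180 bases, read from GENCODE 29 transcripts (GRCh38, minus strand of chromosome 17, exon 2 of 2). Capitals mark the codons of homeodomain positions 48 to 51 in the DNA recognition helix, which encode tryptophan, phenylalanine, glutamine and asparagine. HOXB7 lies at chr17:48607908-48608087, HOXB9 at chr17:48622921-48623100 and HOXB13 at chr17:48726820-48726999.
HOXB7: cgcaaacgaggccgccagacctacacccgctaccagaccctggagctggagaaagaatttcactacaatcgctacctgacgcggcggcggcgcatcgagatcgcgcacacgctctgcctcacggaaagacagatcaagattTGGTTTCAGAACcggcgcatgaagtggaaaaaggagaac
HOXB9: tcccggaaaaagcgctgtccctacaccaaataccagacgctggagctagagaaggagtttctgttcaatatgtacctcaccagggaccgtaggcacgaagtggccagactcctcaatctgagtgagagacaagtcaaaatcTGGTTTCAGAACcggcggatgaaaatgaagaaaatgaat
HOXB13: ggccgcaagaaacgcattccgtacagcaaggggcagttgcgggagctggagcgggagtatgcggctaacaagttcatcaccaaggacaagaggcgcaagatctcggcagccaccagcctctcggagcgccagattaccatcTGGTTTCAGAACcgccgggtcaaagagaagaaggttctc

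Within the homeobox HOXB9 matched HOXB7 at 62.2% of bases and HOXB13 at 61.1%. As proteins, the 60 residues of HOXB9 matched those of HOXB7 at 66.7% and HOXB13 at 51.7%. Over whole transcripts the longest run of identical bases that HOXB9 shared with HOXB7 or HOXB13 was 17. In GENCODE 29 the HOXB7 gene overlaps HOXB8 and HOXB9 on the same strand, and HOXB3 overlaps HOXB4, HOXB5 and HOXB6. These overlaps are of whole gene spans, and shared exons were not sought. How reads in any shared exons were divided between these rows is not given in the sources used here, so their values are uncertain to that extent.

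The cluster also carries a microRNA gene, MIR196A1, whose product is known to pair with HOXB8 mRNA. The mature sequence (RefSeq, GRCh38.p14, chr17:48632532-48632553, minus strand) is shown with its seed, bases 2 to 8, in capitals. Below it stands the stretch of the HOXB8 3′ untranslated region with the most matches to its complement (GRCh38, chr17:48612770-48612791, minus strand), with the unmatched base in capitals.
hsa-miR-196a-5p: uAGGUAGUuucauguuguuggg
HOXB8 site: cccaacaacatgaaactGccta

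The HOXB8 stretch matched the complement of miR-196a at 21 of 22 bases. Its unmatched base lies opposite the seed, so the exact seed match ACTACCT, sought on the transcript strand only, occurred 0 times in the HOXB8 3′ untranslated region. That match occurred in 4 of the 10 members (HOXB1, HOXB6, HOXB7 and HOXB13) and in 6.1% of 18645 genes, whose regions differ in length. HOXB9 had 0 matches, and its most similar stretch matched at 12 of 22 bases. The expression table has no row for MIR196A1, so its level was not analysed here.

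The libraries were similar in overall scale, with FPKM (fragments per kilobase of transcript, scaled to the fragments mapped in the library) summing to 123107 to 134389 per library. They did not group by label alone: over the 9624 tested rows vector control 1 correlated at r = 0.932 with KO 3, against 0.904 and 0.906 with vector control 2 and 3 (across genes, which are not independent replicates). Rows of HIST1H and HIST2H histone genes made up 5.18% to 6.24% of the FPKM sum in vector control 1, KO 2 and KO 3, and 2.81% to 3.26% in vector control 2, vector control 3 and KO 1. Within each of these sets HOXB9 was lower and HOXB13 higher in KO, while HOXB7 was lower in KO in the first set (2.18 against 0.56 and 0.48 FPKM) and higher in the second (1.21 and 1.47 against 1.67). The part of this division in the HOXB values was not tested. Among epithelial markers the keratin gene KRT18 was the most abundant, at 28.78 to 79.42 FPKM, while EPCAM reached at most 0.14 and CDH1 at most 0.02. The 6 epithelial markers with a row of their own summed to 108.28 to 160.05 FPKM in the controls and 65.93 to 83.69 in the knockouts, without overlap. Of the 3 tested, 0 were called and 1 was lower at an unadjusted limma p below 0.05. Over all 9624 tested rows 577 were lower and 1108 higher at that unadjusted p. The part of the epithelial markers in the HOXB values was not tested. Leukocyte markers summed to 1.29 to 4.54 FPKM in the controls and 1.20 to 1.83 in the knockouts, and 5 of 8 (PTPRC, CD3D, CD3E and MS4A1 among them) were listed at 0 in each library. Limma called LYZ higher (0 in each control against 1.20 to 1.83 FPKM) and HLA-DRA lower (1.29 to 3.86 against 0). Each passed the level filter through 1 group alone, which fixed its direction, so nothing is read from these calls. An exact 0 in this table can also be an unmeasured value, although the rows of LYZ and HLA-DRA held values in 1 group. Fibroblast markers summed to 68.91 to 98.89 FPKM in the controls and 68.15 to 96.84 in the knockouts, but 2 of them differed in opposite directions without overlap. COL3A1 had 43.1 to 62.02 FPKM in the controls against 16.46 to 41.24, and COL1A2 24.72 to 35.84 against 50.63 to 56.18. Of the 3 fibroblast markers tested, 0 were called, and 1 was higher and 1 lower at an unadjusted limma p below 0.05. Endothelial markers summed to 0.14 to 0.34 FPKM in the controls and to 0 in each knockout library.

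The HOXB signal of the knockout libraries was smaller, with a smaller share from HOXB9 and HOXB8. Over the 8 rows it summed to 7.79 ± 0.70 FPKM in the controls and 3.20 ± 0.426 in the knockouts (SD, n = 3 per group). Of the 7 rows with any value above 0, 4 had each KO library below each vector control: HOXB9, HOXB8, HOXB5 and the joined row HOXB6;HOXB3;HOXB4. HOXB13 had each KO library above each vector control, and HOXB7 and HOXB2 overlapped. Over the 14413 rows of the table with any value above 0, 7.26% had their knockouts below the controls and 14.9% above. Since this contrast was known when the family was chosen, nothing is read from the counts. In bulk RNA, fewer cells that express a gene and less RNA per cell cannot be told apart.

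**Figure D1:**
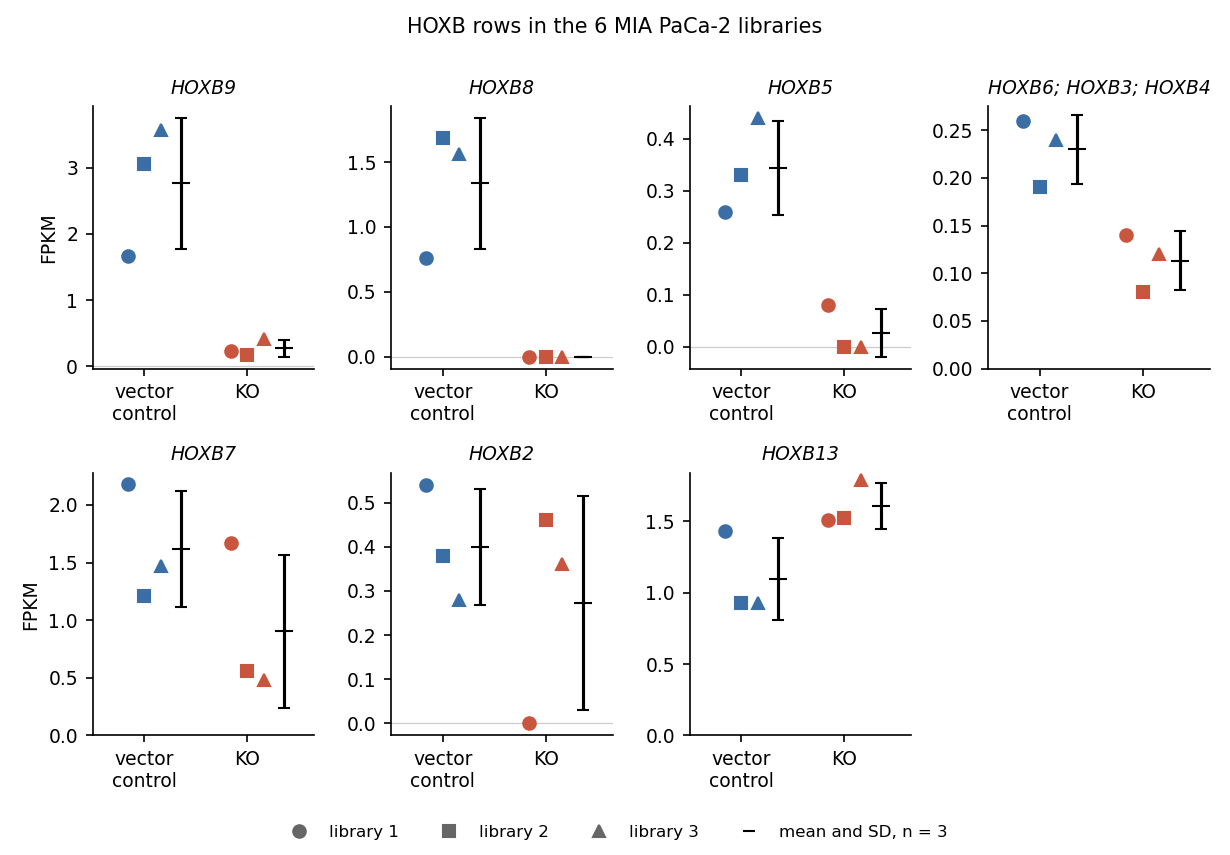
FPKM of the 7 HOXB rows above 0 in any library (vertical axes, each with its own scale, starting at or just below 0), for vector control and KO libraries, with the symbol shape giving the library number and the bar the mean and SD of 3 libraries. HOXB9, HOXB8, HOXB5 and the joined row lie lower in KO without overlap, and HOXB13 lies higher at 1.51 to 1.79 against 0.93 to 1.43.

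HOXB9, a posterior HOX gene of the paralogous group next to HOXB8, had the largest difference of mean FPKM among the members. It stood at 1.66, 3.05 and 3.57 FPKM in the controls, and the knockouts had 0.24, 0.17 and 0.42. The lowest control was thus above each KO library, and vector control 1 was the lowest of the controls. The ratio of the group means was 9.98 (2.76 ± 0.987 against 0.277 ± 0.129 FPKM, SD, n = 3 per group). On the log2(FPKM + 1) scale, which understates changes of low genes, the fold change was -1.53 (SE 0.22). With a pseudocount of 0.1 in place of 1 the value was -2.91.

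HOXB8, a central HOX gene that lies beside HOXB9, was listed at 0 in each KO library. In the controls it stood at 0.76, 1.69 and 1.56 FPKM. Vector control 1 was again the lowest of the controls, as for HOXB9. An exact 0 in this table can be an unmeasured value, since the 13 rows of mitochondrially encoded genes were also at 0 in each library, and no fold is given for HOXB8. With 2 libraries at 1 FPKM or above, HOXB8 fell short of the level filter, which asked for 3.

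The members from HOXB3 to HOXB6, which are anterior to central, stood at lower levels. HOXB5 had 0.26, 0.33 and 0.44 FPKM in the controls, 0.08 in KO 1 and 0 in KO 2 and KO 3. The joined row HOXB6;HOXB3;HOXB4 had 0.26, 0.19 and 0.24 FPKM against 0.14, 0.08 and 0.12, a ratio of means of 2.03. Both rows were lower in each KO library, at low levels whose depth in reads is unknown. The joined row does not say which of its 3 genes gave the reads. HOXB-AS1, HOXB-AS2 and HOXB-AS3 overlap members of the joined row on the other strand, HOXB-AS1 also HOXB2, HOXB-AS3 also HOXB5, and HOXB-AS4 overlaps HOXB7. These overlaps too are of whole gene spans. The use of strand is not given in the sources used here. Where exons overlap, reads of these antisense genes therefore cannot be told apart from those of the members.

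HOXB7 and HOXB2 did not separate the groups. HOXB7 stood at 2.18, 1.21 and 1.47 FPKM in the controls, and the knockouts had 1.67, 0.56 and 0.48. KO 1 lay above 2 of the controls, and without it the groups did not overlap. The log2 fold change of HOXB7 was -0.50 (SE 0.26), and -0.77 without KO 1. HOXB2, an anterior member, had 0.54, 0.38 and 0.28 FPKM against 0, 0.46 and 0.36, so that KO 1 alone was listed at 0. HOXB1, the most anterior member, was listed at 0 in all 6 libraries.

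HOXB13, the most posterior member and a lineage factor of prostate and distal gut, went the other way. It stood at 1.43, 0.93 and 0.93 FPKM in the controls, and the knockouts had 1.51, 1.52 and 1.79. The gap between the groups was narrow, with vector control 1 at 1.43 next to KO 1 at 1.51. The ratio of means was 1.47 (1.61 ± 0.159 over 1.10 ± 0.289 FPKM, SD, n = 3 per group), and the log2 fold change was 0.32 (SE 0.15). After quantile normalization of FPKM over all rows with any value above 0 the groups overlapped. With quantile normalization of the log2(FPKM + 1) values over the tested rows the fold change was 0.17.

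The 3 rows that passed the level filter were HOXB7, HOXB9 and HOXB13. HOXB9 passed through the controls alone, so it had to be lower in the knockouts to be among them. In the limma fit over 9624 rows, 1 of these 3 was called (adjusted p below 0.05 by the Benjamini-Hochberg method), HOXB9, where 1.35% of all tested rows were called and 0.842% were called lower. This call was known when the family was chosen, and nothing is read from it. It was lost when any 1 library other than vector control 1 was left out. Of the 130 rows called in all, 81 were lower and 49 higher. The balance moved with the setting: 99 were lower and 31 higher after quantile normalization, 488 lower and 841 higher without vector control 1, and 1424 lower and 2596 higher with robust limma and array weights.

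**Figure D2:**
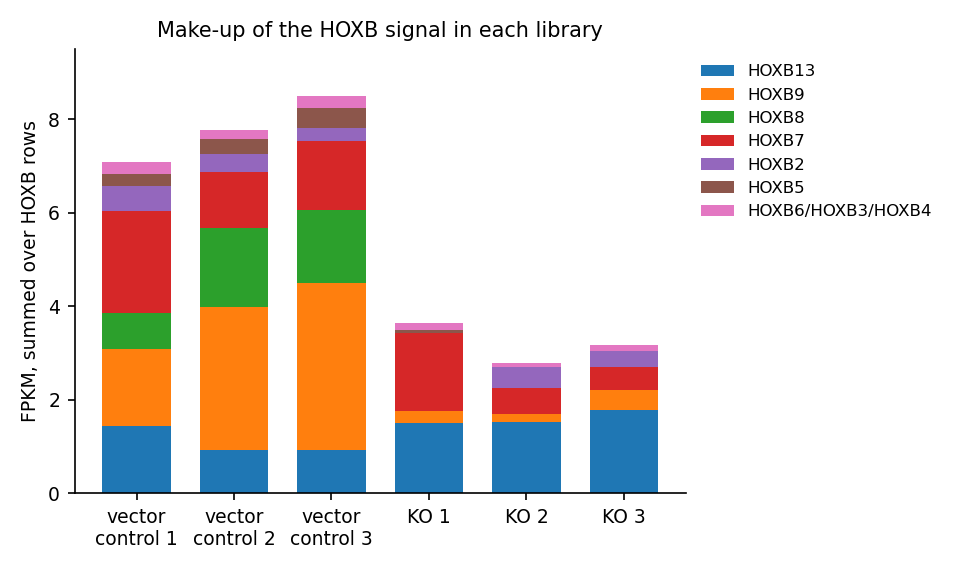
FPKM summed over the HOXB rows (vertical axis, from 0) in each of the 6 libraries (horizontal axis), with the colours giving the share of each row. The sums run from 7.09 to 8.49 in the controls and from 2.79 to 3.64 in the knockouts, where HOXB13 and HOXB7 make up most of the bar.

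The order of the members changed with the group. FPKM is scaled per length, so levels of different genes can be set side by side. In the controls the order of the means was HOXB9, HOXB7, HOXB8, HOXB13, HOXB2, HOXB5 and the joined row, from 2.76 down to 0.230 FPKM. Neighbours in this order overlapped, except that HOXB13 and HOXB2 did not, and HOXB5 and the joined row met at 0.26. In the knockouts HOXB13 led at 1.61 FPKM, followed by HOXB7 at 0.903, HOXB9 at 0.277 and HOXB2 at 0.273. Here HOXB7 and HOXB9 did not overlap, while HOXB13 and HOXB7 did because of KO 1.

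Ratios of members within a library do not depend on the factor by which the library was scaled. The ratio of HOXB9 to HOXB13 was 1.16, 3.28 and 3.84 in the controls, and the knockouts had 0.159, 0.112 and 0.235. HOXB9 made up 23.4%, 39.2% and 42.0% of the HOXB sum in the controls and 6.59%, 6.09% and 13.2% in the knockouts. The share of HOXB13 was 20.2%, 12% and 11% against 41.5%, 54.5% and 56.5%. For both measures vector control 1 was the control nearest to the knockouts, and the groups did not overlap. HOXB7 was the highest row in vector control 1 and in KO 1, HOXB9 in vector control 2 and 3, and HOXB13 in KO 2 and KO 3.

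Along chromosome 17 the members lie on the minus strand in the order HOXB1 to HOXB9, followed at a distance by HOXB13, with PRAC1 and PRAC2 between the last 2 genes. PRAC1 was listed at 0 in each library, and PRAC2 reached 0.42 FPKM in KO 1 and at most 0.04 elsewhere. The 10 coding genes on each side filled 19 rows, of which 3 were listed at 0 throughout. In 0 of the 19 were the knockouts all below the controls, and in 2 they were all above, COPZ2 among them (0.35, 0.05 and 0.29 against 1.51, 0.64 and 0.74 FPKM). With 7.26% of all rows above 0 lying below and 14.9% above, these counts are near the background. SKAP1, beside HOXB1, was listed at 0 in each library, and TTLL6, beside HOXB13, reached at most 0.31 FPKM.

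**Figure D3:**
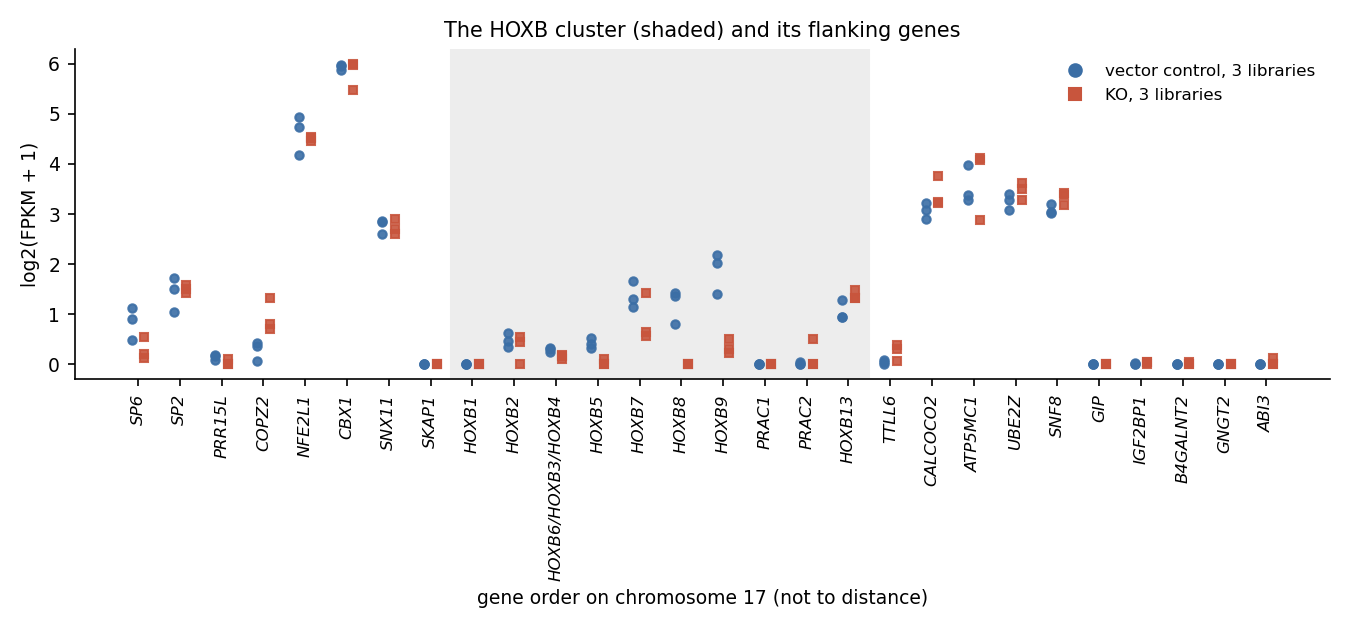
Level as log2(FPKM + 1) (vertical axis) of the HOXB cluster (shaded) and its flanking coding genes in their order on chromosome 17 (horizontal axis, not to distance, 1 flanking row left out), with 3 points per group. Vector controls lie above KO from the joined row to HOXB9 apart from HOXB7, whose groups overlap, and flanking genes such as CBX1 and SNX11 overlap.

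A wider list of 34 symbols around the cluster on 17q21 held 17 tested genes with a row of their own, and limma called 0 of them (1 was higher and 0 lower at an unadjusted p below 0.05). Their median log2 fold change was 0.01, against 0.075 over all tested rows, and ran from -0.38 for NGFR to 0.49 for ZNF652. At that unadjusted p, 1108 of all 9624 tested rows were higher and 577 lower.

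Genes of the other HOX clusters were mostly listed at 0 or overlapped between the groups. Of 19 HOXA, HOXC and HOXD genes with a row of their own, 10 were listed at 0 in each library and 3 were tested. Limma called 0 of these 3, with 0 at an unadjusted p below 0.05, against 1108 higher and 577 lower of all 9624 tested rows. HOXA9, the HOXA paralogue of HOXB9, reached at most 0.06 FPKM, and HOXC9 and HOXD9 gave no value to compare: HOXC9 shares a joined row and HOXD9 was listed at 0. HOXA2 stood at 1.66, 3.44 and 3.55 FPKM in the controls, and the knockouts had 3.78, 1.05 and 1.69 (log2 fold change -0.34, SE 0.35, adjusted p = 0.657). HOXA2 had vector control 1, KO 2 and KO 3 low and the other 3 libraries high, a division that crosses the groups. HOXC8 had 1.77, 0.93 and 0.97 FPKM against 1.14, 1.31 and 1.82 (log2 fold change 0.13, adjusted p = 0.762; -0.02 after quantile normalization). Below the filter, the joined row of HOXC4, HOXC5, HOXC6, HOXC9 and HOXC10 had 0.15, 0.11 and 0.08 FPKM against 0.32, 0.31 and 0.27, higher in each KO library.

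**Figure D4:**
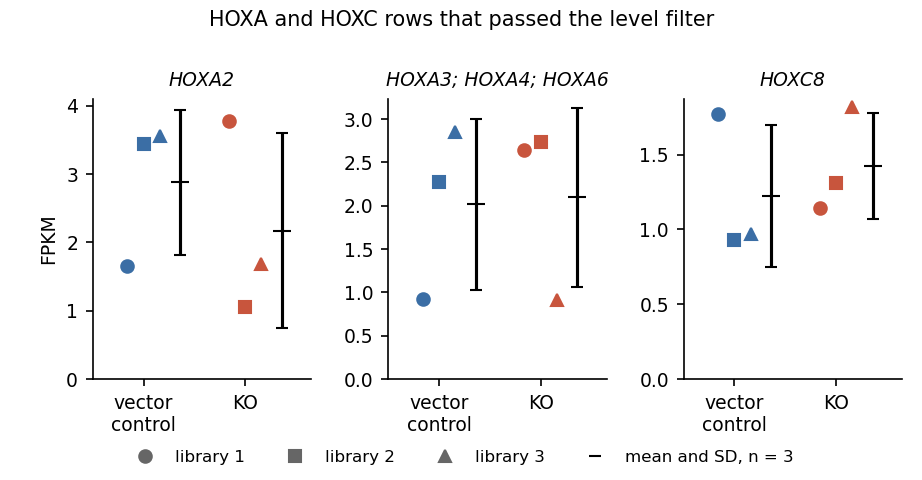
FPKM (vertical axes, from 0) of 3 HOXA and HOXC rows that passed the level filter, drawn as for the HOXB rows. The groups overlap in each panel, and for HOXA2 library 1 of the controls lies with libraries 2 and 3 of KO.

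Of the TALE cofactors, 6 were tested with a row of their own and limma called 0 (1 higher and 0 lower at an unadjusted p below 0.05). At that unadjusted p, 1108 of all 9624 tested rows were higher and 577 lower. MEIS2, a DNA-binding partner of HOX proteins, had the highest fold change, from 4.17, 2.25 and 2.73 FPKM to 5.39, 4.45 and 5.03 (0.58, SE 0.21, adjusted p = 0.223). The KO values lay above the controls, but the gap was small beside the spread of the controls. PBX2 had the lowest (-0.14, adjusted p = 0.786), at 10.44 to 18.69 FPKM in the controls and 12.93 to 14.73 in the knockouts. MEIS1 reached at most 0.01 FPKM. Of the ParaHox genes, 0 passed the filter, and PDX1, the pancreatic master regulator, reached at most 0.19 FPKM.

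Among 24 tested Polycomb genes 1 rose and 0 fell (5 higher and 0 lower at an unadjusted limma p below 0.05), with a median log2 fold change of 0.17. Over all 9624 tested rows 49 were called higher and 81 lower, and 1108 were higher and 577 lower at that unadjusted p. The median over all tested rows was 0.075. JARID2, which encodes an accessory subunit of the Polycomb complex PRC2, rose: controls had 1.22, 1.28 and 1.26 FPKM and knockouts 3.39, 3.21 and 2.76 (a log2 difference of 0.87, SE 0.14, adjusted p = 0.0343). Each group was narrow, and the groups were far apart beside their spread. Over the alternatives the adjusted p of JARID2 ran from 0.00171 to 0.221: it was 0.0578 after quantile normalization, and 0.0671 without KO 1, 0.156 without KO 2 and 0.146 without KO 3. It was 0.176 without vector control 2 and 0.168 without vector control 3. The catalytic subunit gene EZH2 had 6.36, 4.48 and 4.58 FPKM against 5.41, 5.95 and 6.65, and EZH1 the lowest fold change of the list (-0.53, adjusted p = 0.549). In 9 of the 24 genes the knockouts lay above the controls and in 2 below, where over all tested rows 15.4% lay above and 8.35% below. Of 9 tested Trithorax genes limma called 0 (1 higher at an unadjusted p below 0.05, median 0.14), from KMT2C at 0.51 (adjusted p = 0.165) to KDM6B at -0.41 (adjusted p = 0.695).

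Of 9 tested retinoic acid genes, ALDH1A1 rose and ALDH1A3 fell, both encoding enzymes that make retinoic acid from retinaldehyde. Over all 9624 tested rows limma called 49 higher and 81 lower. ALDH1A1 stood at 122.27, 164.05 and 171.2 FPKM in the controls, and the knockouts had 436.34, 468.29 and 466.28 (log2 fold change 1.59, SE 0.17, adjusted p = 0.00904). ALDH1A3 stood at 10.58, 7.42 and 7.35 against 2.26, 2.18 and 2.47 (-1.50, SE 0.18, adjusted p = 0.0138). ALDH1A1 was not called without KO 2 (adjusted p = 0.0598) or KO 3 (0.0695), over a range of 0.000145 to 0.0992. ALDH1A3 was not called without vector control 2 (0.0507), vector control 3 (0.0501), KO 2 (0.0785) or KO 3 (0.0767), over a range of 0.000398 to 0.118. The receptor genes did not pass: RARA had 1.23, 2.69 and 3.17 FPKM against 2.64, 1.86 and 1.61 (adjusted p = 0.863), and RARG an adjusted p of 0.629. DHRS3, which encodes a retinaldehyde reductase and is a known retinoic acid target, had 3.04, 8.72 and 9.68 against 10.27, 10.62 and 9.67 (adjusted p = 0.445). Below the level filter, CRABP2 of the same list had 0.29, 0.34 and 0 against 1.56, 0.66 and 0.44 FPKM, higher in each KO library. RARB, also below it, had 0.06, 0.14 and 0.13 against 0.32, 0.11 and 0.31, and its groups overlapped. Whether retinoid levels bear on the HOXB values was not tested.

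Of the genes reported in other cells as induced by HOXB9, 6 were tested, 1 fell and 0 rose. At an unadjusted limma p below 0.05, 3 were lower and 1 higher. Over all 9624 tested rows 81 were called lower and 49 higher, and 577 were lower and 1108 higher at that unadjusted p. CXCL8, the neutrophil chemokine gene, fell: controls had 67.99, 31.16 and 32.59 FPKM and knockouts 3.88, 4.58 and 4.72 (a log2 difference of -2.97, SE 0.30, adjusted p = 0.00799). It was not called without KO 2 (0.0510; range over the alternatives 8.15e-05 to 0.0889). TGFB2, a growth factor gene, had 1.56, 2.26 and 2.26 against 0.60, 0.81 and 0.53 FPKM (-0.87, adjusted p = 0.0516) and did not pass, but it was called after quantile normalization and without vector control 1. TGFB2 passed the level filter through the controls alone, so it had to be lower in the knockouts to be tested. AREG, an EGF receptor ligand gene, had 6.72, 3.99 and 3.37 against 5.30, 14.79 and 13.11 (1.02, adjusted p = 0.242), and VEGFA had vector control 1 at 1.74 beside 13.82 and 13.71. The median of the 6 was -0.78, against 0.075 over all tested rows. CXCL8 was known to have fallen when this list was made, and the filter fixed the direction of TGFB2. Their directions and the median are therefore no independent evidence.

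**Figure D5:**
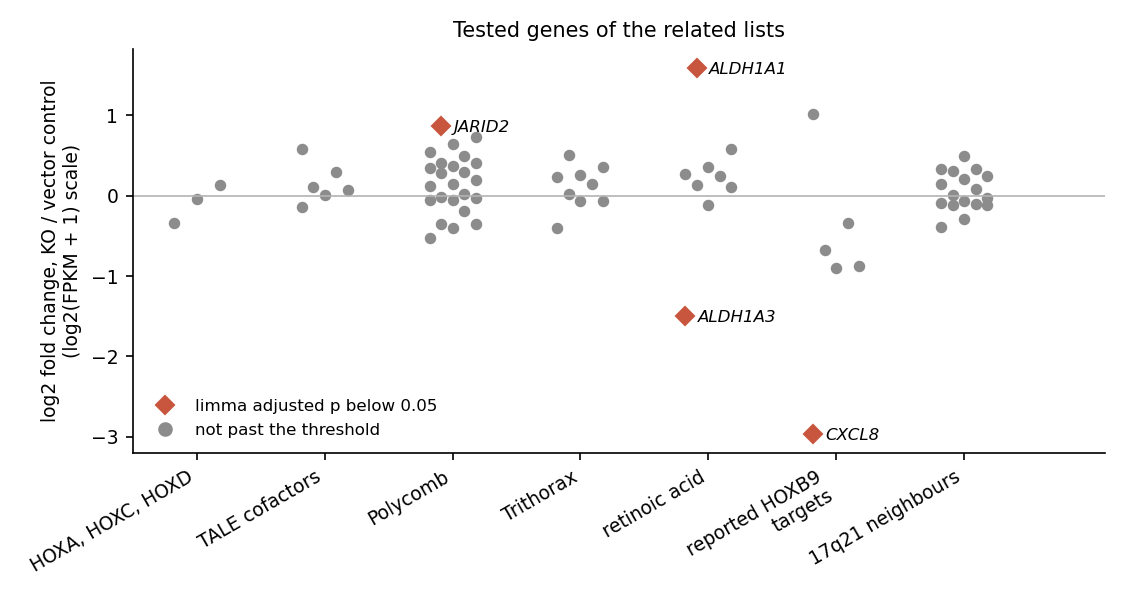
Log2 fold change of KO over vector control on the log2(FPKM + 1) scale (vertical axis) for tested genes with a row of their own in 7 related lists (horizontal axis), with limma calls as red diamonds. The 4 calls are ALDH1A1 and JARID2 above 0 and ALDH1A3 and CXCL8 below.

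The rows most like HOXB9 were sought among the other 4976 tested rows with a mean of at least 5 FPKM, by Pearson's r over the 6 libraries on the log2(FPKM + 1) scale. They were POLR2L, an RNA polymerase subunit gene (r = 0.997), the joined row PABPN1;BCL2L2;BCL2L2-PABPN1 (0.995), the adhesion receptor gene ADGRG6 (0.994), the joined row DTD1;SMIM26;AL121900 (0.993) and the galactosyltransferase gene B4GALT5 (0.992). In all, 187 rows reached 0.9 or more, and the points share their libraries and the difference between the groups. POLR2L stood at 31.1 ± 1.98 FPKM in controls against 23.8 ± 0.667, and the PABPN1 row at 12.6 ± 1.14 against 9.02 ± 0.276 (SD, n = 3 per group). All 5 rows were lower in KO by a smaller ratio of means than HOXB9.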

How the data were processed

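Total RNA of 6 MIA PaCa-2 samples was analysed, 3 vector control and 3 LINC00901 KO, grouped by title. The authors deposited FPKM values to 2 decimals, 1 column per library, and 0 columns had no sample. HISAT2, cutadapt, FastQC and the build hg19 are named by the submitters' processing notes. Their versions, the FPKM tool, the annotation and strand use were not given in the sources used here. A search for whole-read steps in low values of short genes found none (best concentration 0.278 to 0.434, where exact multiples give 1), so depth is unknown and 3 libraries per group limit the precision. Of 18268 rows, 3855 were at 0 throughout and 990 joined several symbols. Joined rows stayed whole, and related-list counts use rows with 1 symbol.

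The 9624 rows that reached 1 FPKM in 3 or more of 6 libraries were fitted on log2(FPKM + 1) with limma 3.58.1 (R 4.3.3; mean-variance trend, two-sided, Benjamini-Hochberg adjusted p below 0.05 over all rows), without covariates. The script was tested on simulated data. The members, the related lists and the tests were chosen with earlier results of these data known. Named genes were the members, related-list genes that were called or had the highest or lowest fold change in their list, and the 5 rows most like HOXB9. EZH2, MEIS1, PDX1, HOXA9, HOXD9, the joined HOXC row, RARA, RARG, RARB, CRABP2 and DHRS3 were picked after their values were seen. So were TGFB2, VEGFA, EREG, FGF2, the flanking genes and the markers named. Alternatives were other pseudocounts and filters, median scaling, quantile normalization, limma without trend, robust limma with array weights, a replicate block and each library left out. Gene order, homeoboxes and untranslated regions came from GENCODE 29 and the microRNA from RefSeq, both on GRCh38. No coordinates were transferred to hg19. The promoter table matched 1 of 10 members and was not used. Some genes and sequences are not reported here.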

Additional observations from a re-analysis of the deposited data

How the results depend on the processing

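Without a filter limma called 241 rows, with a filter at 5 FPKM 59, with robust limma and array weights 4020, and 25 to 1329 with 1 library left out (1329 without vector control 1), against 130. After quantile normalization 99 of 130 calls were lower in KO, against 81. Related-list calls numbered 34 with robust limma and 0 to 10 with 1 library left out, against 4. The lowest, 0, came without KO 2 and the highest without vector control 1. It was 1 without KO 3, 2 without vector control 2 and 2 without vector control 3. HOXB13, the 1 HOXB row higher without overlap, overlapped after quantile normalization (0 rows). The count of 4 lower HOXB rows ran from 4 to 5 over its 9 alternatives, with HOXB7 added without KO 1 and when paired by number. Leaving out a library or pairing by number can add such a row but cannot remove one. Only median scaling and quantile normalization could have lowered the count, so its range over the remaining alternatives shows no stability. Overlap does not depend on the pseudocount, the filter or the fit. The log2 fold changes of HOXB9 (-2.91 to -1.37), HOXB7 (-0.93 to -0.34) and HOXB13 (0.17 to 0.53) ran over these values in 14 alternatives each, a direction that the choice of members fixes for HOXB9, and with the filter at 5 FPKM 0 HOXB rows were tested. Among related-list genes that were called or had the highest or lowest fold change in their list, PBX2 and HOXC8 changed sign in 1 alternative each, without a call. Signs of the remaining related genes over the alternatives are not given. The causes were not tested.

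With the replicate number as a block limma called 7 rows (0 higher and 7 lower), 0 related genes and 0 HOXB rows, so that HOXB9 was not called. No pairing by number showed: deviations from the group means correlated at -0.374, -0.153 and -0.264 between libraries with the same number. Deviations within a group are not independent of each other, so a weaker pairing was not tested. Paired by number, 5 HOXB rows were lower and 1 higher in each pair. Rows whose groups do not overlap differ in the same direction under any pairing. Depth is unknown, and low values have no counting error beside them.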
